A study of Mus musculus with 17 samples.

Results

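The difference in expression between GFP+ and GFP- medullary thymic epithelial cells was itself compared between perinatal and adult wild-type mice. For each gene the log2 intensity in GFP- cells was subtracted from that in GFP+ cells at each age, and the adult value was then subtracted from the perinatal one. A positive value therefore means that the ratio of GFP+ to GFP- cells was higher in perinates, and a negative value that it was higher in adults. The arrays were chosen by their titles alone and number 11 of the 17 in the series: 3 of adult GFP- cells, 3 of adult GFP+ cells, 2 of perinatal GFP- cells and 3 of perinatal GFP+ cells.

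All 11 samples came from C57BL/6 mice of mixed sex that carried the Adig transgene, in which Aire regulatory sequence drives a fusion of Igrp and GFP, and had a wild-type Aire gene. Cells that were CD45-, Ly51- and MHCIIhi were sorted as GFP+ or GFP- on a MoFlo instrument, and total RNA was read on whole-transcript arrays (Affymetrix Mouse Gene 1.0 ST). Adults were 5 weeks old. Perinates are labelled as 3 days old, while the series text gives 0 to 3 days. The other 6 arrays hold GFP+ cells of Aire-knockout mice. They served here to choose Aire-dependent genes and, with the rest, the probe set that stands for each gene. They also entered an alternative with all 17 arrays in the fit. Nothing in the labels ties a replicate to its own animal or pool of animals, and the p-values cover no more than the variation among these arrays, part of which may be technical.

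Medullary thymic epithelial cells display proteins of other tissues to developing T cells, which lets self-reactive cells be deleted or turned into regulatory cells. Aire, a transcriptional regulator, switches on many of these tissue genes in mature MHC class II-high cells, and Fezf2 controls another share. Cells that have passed through the Aire stage can become mimetic cells, which resemble tuft cells, corneocytes, microfold cells and other peripheral types and have largely stopped making Aire. A GFP- gate at high MHC class II can therefore hold cells that are before, beside or after the Aire stage. In bulk samples, fewer cells of a type and less RNA per cell cannot be told apart.

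The labels were checked against defining transcripts. The epithelial gene Epcam read 1967 to 3841 on the 11 arrays, and H2-Aa, an MHC class II chain, 7036 to 10980. Aire lay between 4094 and 6196 on the 6 GFP+ arrays and between 270 and 930.1 on the 5 GFP- arrays, so the sorts did not overlap at either age. Median intensity per array was 149.8 to 157.07. The 40th percentile of an array, below which a probe set counted as dim, was 104.85 to 112.14. For 31 of 119 genes named by rule, all called, every array of at least 1 group was dim, and there the log2 difference is taken against background. With dim values raised to that percentile before the fit, an alternative added after the data were seen, 22 of the 31 kept their call. In 6 of the 31, 3 groups were dim. Sdr16c6, Bmx, Dnali1, Ccdc39 and Themis were dim outside adult GFP- cells, and Glrb outside perinatal GFP- cells. These 6 passed the filter for testing through a single group, which favours the sign they had. Their direction is therefore no support for a pattern. Correlations across genes between arrays of the same group were 0.9689 to 0.9886, and the lowest of them belonged to the pair of perinatal GFP- arrays.

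The sorts differed at both ages, but by different genes or amounts. Of 13529 genes tested, 2273 had a difference that passed the test (limma, Benjamini-Hochberg adjusted p under 0.05, referred to as called). The ratio of GFP+ to GFP- cells was higher in perinates for 1258 of them (9.3% of genes tested) and lower for 1015 (7.5%). The counts of each gene list below are to be read against these shares. An unadjusted p under 0.05 was found for 4062 genes. The size reached 2-fold for 694 of the positive and 402 of the negative genes, and 4-fold for 97 and 30. The median over all genes tested was -0.02 on the log2 scale, with a median standard error of 0.203. The split between directions rested on the pair of perinatal GFP- arrays: without replicate 1 there were 1277 positive and 657 negative genes (66% positive), and without replicate 2 there were 820 and 996 (45.2% positive).

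Within adults GFP+ cells exceeded GFP- cells for 3082 genes (22.8%) and were lower for 2496 (18.4%). Within perinates the counts were 2890 (21.4%) and 2550 (18.8%). The adult and perinatal sort differences, which share no array, correlated across genes with Pearson's r of 0.643 and Spearman's rho of 0.622. Genes are not independent replicates, and this is a description. Among the 1258 positive genes the sorts were called in adults only for 395 and in perinates only for 396. At both ages with the same sign they were called for 266 genes with a larger difference in perinates and for 74 with a larger difference in adults. A change of sign with both sort differences called was found for 106 positive and 84 negative genes. Among the 1015 negative genes, 264 were called in adults only and 432 in perinates only.

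**Figure D1:**
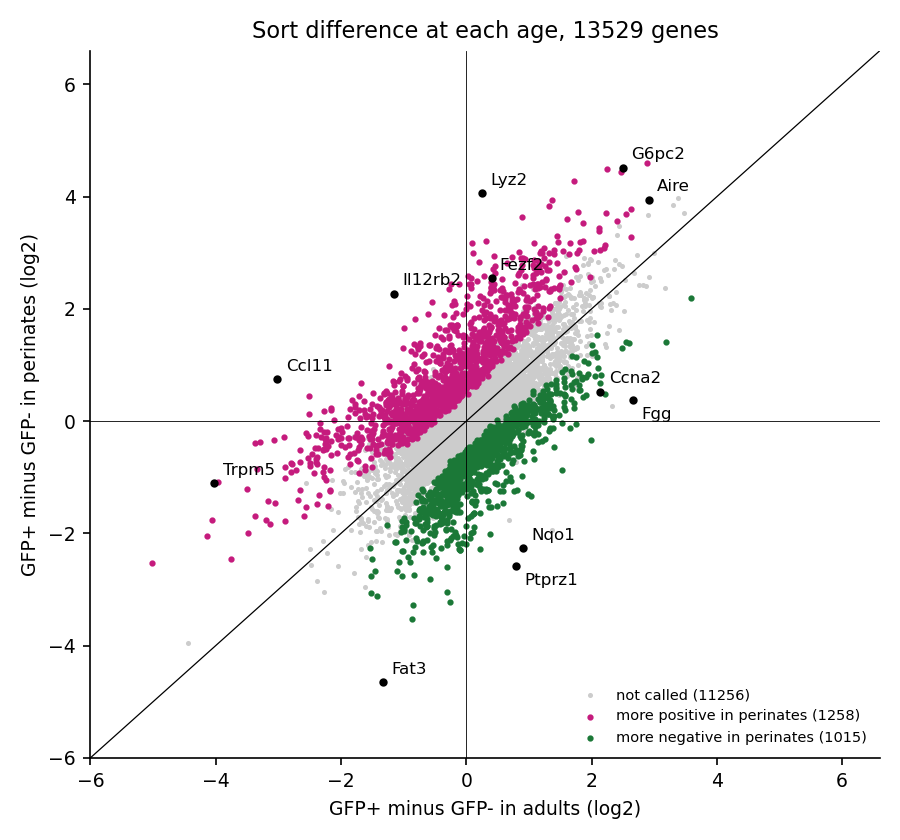
The log2 difference between GFP+ and GFP- cells in adults (x axis) is plotted against that in perinates (y axis), with a point for each of the 13529 genes tested and the line of equality. Genes called with a positive difference by age (1258, magenta) lie above the line and those called with a negative one (1015, green) below it. Lyz2 sits near 0 in adults and at 4.06 in perinates.

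The age difference of the called genes lay mostly in the GFP- cells. Over all genes tested, perinates exceeded adults for 2734 genes in GFP- cells (20.2%) and were lower for 3103 (22.9%). In GFP+ cells these counts were 822 (6.08%) and 1580 (11.7%). Among the 1258 positive genes, 811 (64.5%) were called for age in GFP- cells only, 66 (5.25%) in GFP+ cells only, 353 in both and 28 in neither. The age difference was the larger in GFP- cells for 1166 of them (92.7%). Their median age difference was -1.26 in GFP- cells and -0.14 in GFP+ cells. Among the 1015 negative genes, 723 (71.2%) were called in GFP- cells only and 89 (8.77%) in GFP+ cells only. Their median was 1.01 in GFP- cells and 0.08 in GFP+ cells. These age differences come from the same 11 arrays and describe how the called values arose. They are not separate tests. The perinatal GFP- arrays carry replicate numbers 1 and 2, and the other wild-type arrays carry numbers 5 to 8. Whether that pair was sorted or run at another time is not given in the labels. What part this had in the age difference of GFP- cells was not tested.

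**Figure D2:**
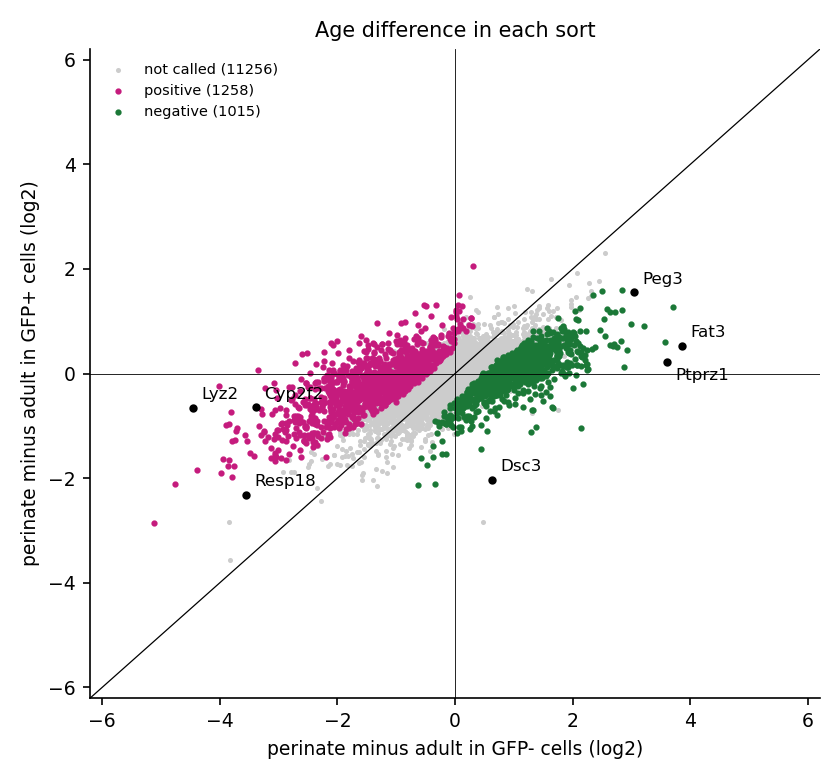
The log2 difference between perinates and adults in GFP- cells (x axis) is plotted against that in GFP+ cells (y axis) for the 13529 genes tested, with the line of equality. Called genes spread along the horizontal axis, with medians of -1.26 (positive genes) and 1.01 (negative genes) in GFP- cells. Dsc3 is an exception, at 0.62 in GFP- and -2.03 in GFP+ cells.

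Most of the 14 genes with the largest positive differences fell into 2 patterns. In the first, both adult sorts and perinatal GFP+ cells were high and perinatal GFP- cells low. Lyz2, the myeloid lysozyme, read 4502, 4659 and 3941 in adult GFP- cells and 5046, 5278 and 5255 in adult GFP+ cells. In perinates it read 199 and 196 in GFP- cells and 2912, 3665 and 3366 in GFP+ cells. The perinatal GFP- arrays stood far below the other 9, and no groups overlapped. The difference by age was 3.81 ± 0.17 (SE, log2, adjusted p = 2.77e-07), the largest of all called genes.

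Lyz1, the lysozyme of Paneth cells, followed the same pattern. It read 5499, 5936 and 5801 in adult GFP- cells, 5754, 6615 and 5997 in adult GFP+ cells, 473 and 354 in perinatal GFP- cells and 3554, 4452 and 3186 in perinatal GFP+ cells. The adult sorts overlapped and the perinatal sorts did not (difference 3.08 ± 0.21, adjusted p = 8.6e-06). Dio1, a thyroid hormone deiodinase, differed by 2.90 ± 0.26 (adjusted p = 3.31e-05) and read 105 and 108 in perinatal GFP- cells against 717 to 1992 on the other 9 arrays. Klk1b8, a glandular kallikrein, differed by 2.88 ± 0.23, with 149 and 109 in perinatal GFP- cells and 946 to 2273 elsewhere. Ccr4, the receptor of Ccl17 and Ccl22, differed by 2.74 ± 0.27, with 206 and 141 against 1078 to 2797. In all 3 genes the perinatal GFP- arrays were the lowest of the 11. Dmbt1, a mucosal scavenger protein, differed by 2.69 ± 0.45 at lower intensities, 96.8 and 71.4 in perinatal GFP- cells and 203 to 585 elsewhere.

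In the second pattern, adult GFP- cells alone were high. Ccl11, the chemokine eotaxin, read 3863, 2042 and 4714 in adult GFP- cells and 326, 469.9 and 460.4 in adult GFP+ cells. In perinates it read 254 and 168 in GFP- cells and 372, 311 and 364 in GFP+ cells. Adult GFP- cells exceeded every other array (difference 3.77 ± 0.40, adjusted p = 0.000109). Trpm5, the cation channel of tuft and taste cells, read 1505, 2152 and 2065 in adult GFP- cells, 119, 108 and 121 in adult GFP+ cells, 408 and 201 in perinatal GFP- cells and 131, 149 and 121 in perinatal GFP+ cells. The sorts differed in the same direction at both ages, by -4.02 in adults and -1.11 in perinates. The log2 ratio of Trpm5 was thus still below 0 in perinates but closer to it (difference 2.92 ± 0.33, adjusted p = 0.000156).

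The leading genes Sdr16c6, Clca1, Cyp2b19, Bmx and Cyp2f2 shared this pattern. Sdr16c6 differed by 2.97 ± 0.39, but it was dim in the 3 other groups (24.2 to 73.5, against 286 to 369.7 in adult GFP- cells), and the difference was 1.66 with dim values raised. Cyp2b19, a keratinocyte cytochrome P450, differed by 2.92 ± 0.35. Cyp2f2, a cytochrome P450 of airway club cells, read 4507, 4691 and 4839 in adult GFP- cells and 311 to 715 on all other arrays (difference 2.73 ± 0.26, adjusted p = 4.55e-05). Clca1, a goblet cell secretion, read 2431, 2963 and 3843 against 198 to 791 (2.95 ± 0.59, adjusted p = 0.00514). Il12rb2, a chain of the interleukin-12 receptor, changed sign. It read 984, 909.5 and 781 in adult GFP- cells and 394, 380 and 429 in adult GFP+ cells, but 94.1 and 80.3 in perinatal GFP- cells and 343, 433 and 496 in perinatal GFP+ cells. GFP+ cells were lower in adults (-1.15) and higher in perinates (2.27), and the difference was 3.42 ± 0.22 (adjusted p = 4.98e-06).

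The largest negative differences came mostly from genes that were high in perinatal GFP- cells alone. Ptprz1, a receptor tyrosine phosphatase, read 136, 191 and 223 in adult GFP- cells, 263, 344 and 330.4 in adult GFP+ cells, 2046 and 2318 in perinatal GFP- cells and 345, 372 and 374 in perinatal GFP+ cells. Its sort difference turned from 0.79 in adults to -2.58 in perinates (difference -3.37 ± 0.25, adjusted p = 1.21e-05). Fat3, an atypical cadherin, read 1710 and 2142 in perinatal GFP- cells and 45.9 to 195 on the other 9 arrays (-3.33 ± 0.32, adjusted p = 5.07e-05). For both genes the perinatal GFP- arrays were the highest of the 11 with no overlap.

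Glrb (glycine receptor beta subunit, -2.97), Frem2 (a basement membrane protein, -2.49), Slc38a4 (an imprinted amino acid transporter, -2.43) and Susd4 (a complement regulator, -2.30) had the same shape. Glrb was dim on all arrays but the perinatal GFP- pair (28.5 to 54.8 against 509.9 and 359), and its difference was -1.97 with dim values raised. Susd4 read 1308 and 1097 in perinatal GFP- cells and 103 to 222 elsewhere. Nqo1, a quinone reductase, moved in opposite directions in the sorts. It read 239, 270.1 and 291 in adult GFP- cells and 514, 473 and 510.4 in adult GFP+ cells, then 1186 and 1154 in perinatal GFP- cells and 316, 274 and 166 in perinatal GFP+ cells. The difference was -3.18 ± 0.29 (adjusted p = 3.67e-05), with an age difference of 2.14 in GFP- and -1.04 in GFP+ cells, both called. Fmo1, a flavin monooxygenase, and Pkhd1l1 behaved likewise, at -2.40 ± 0.21 and -2.41 ± 0.24.

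Other negative genes owed their value more to adult cells or to GFP+ cells. Dsc3, a desmosomal cadherin, read 1512, 1343 and 1997 in adult GFP- cells and 876, 833 and 910.5 in adult GFP+ cells. In perinates it read 2426 and 2479 in GFP- cells and 166, 309 and 191 in GFP+ cells, which lay below all other arrays (-2.65 ± 0.30, adjusted p = 0.00019). Fgg, the fibrinogen gamma chain and a liver protein cited as Aire-induced, read 45.6, 49.2 and 38.0 in adult GFP- cells, dim on each array, and 272, 282 and 280.2 in adult GFP+ cells. In perinates the sorts were nearer, at 159 and 119 against 192, 183 and 162 (-2.28 ± 0.20, adjusted p = 3.37e-05, and -0.98 with dim values raised). Cth, an enzyme of cysteine synthesis, had likewise a large sort difference in adults (1.99) and one of -0.33 in perinates (-2.32 ± 0.22). It was dim in adult GFP- cells, and its difference was -2.06 with dim values raised.

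**Figure D3:**
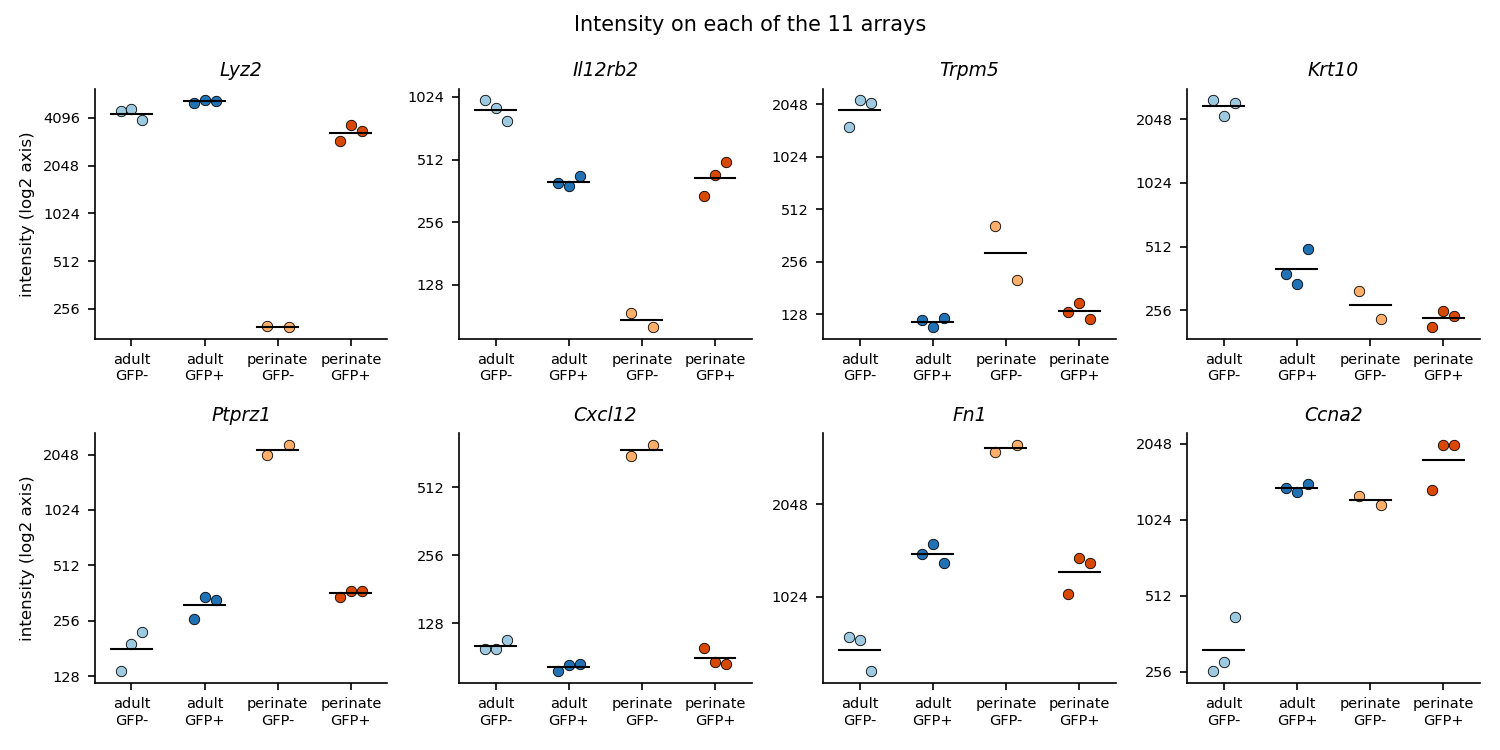
Intensity of 8 genes on each of the 11 arrays, on a log2 axis that starts at a different value in each panel, with the 4 groups along the x axis, a point per array and a bar at the mean of log2 values. Lyz2 and Il12rb2 are low in perinatal GFP- cells, Trpm5 and Krt10 are high in adult GFP- cells, Ptprz1, Cxcl12 and Fn1 are high in perinatal GFP- cells, and Ccna2 is low in adult GFP- cells only.

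The genes of the sorting axis itself were read next. G6pc2, which encodes Igrp and is the coding part of the reporter, read 1452, 1725 and 1664 in adult GFP- cells and 8956, 8777 and 9690 in adult GFP+ cells. In perinates it read 254 and 429 in GFP- cells and 7586, 7948 and 7144 in GFP+ cells. The sorts did not overlap at either age. For G6pc2 the log2 ratio rose from 2.50 in adults to 4.52 in perinates (difference 2.01 ± 0.24, adjusted p = 0.000259). Its age difference was -2.29 in GFP- cells and -0.27 in GFP+ cells. Whether the probe set reads the transgene, the endogenous gene or both is not given in the sources used here. Aire read 645, 930 and 495 in adult GFP- cells and 4355, 6196 and 4739 in adult GFP+ cells, then 270 and 351 in perinatal GFP- cells and 4891, 4094 and 5336 in perinatal GFP+ cells. Its log2 ratio was higher in perinates by 1.03 ± 0.32 (adjusted p = 0.0452). That call stood at the threshold. It was lost under quantile normalization (adjusted p = 0.0763), with no filter on dim probe sets (0.0544), with a pseudocount of 32 (0.0515), with array weights (0.0569) and with dim values raised (0.0591), and it also went when any of 7 arrays was left out, adult GFP- replicates 6 and 7, perinatal GFP- replicate 1, adult GFP+ replicates 6 and 8 and perinatal GFP+ replicates 5 and 7 (adjusted p 0.0708 to 0.162, difference 0.79 to 1.05).

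Among genes of mimetic cells 7 lists had positive calls, with 1 negative call in the enterohepatic list. The muscle list had 2 negative calls and no positive one. Its share of negative calls was 11.1%, against 7.5% of all genes, and its median difference was -0.03. Tuft cells are chemosensory cells with the taste transduction cascade. Of 29 tested genes of their list, 22 were called positive and none negative (0 at an unadjusted p under 0.05), against 9.3% and 7.5% of all genes, with a median difference of 1.31. The 29 include 24 that were lower in GFP+ than GFP- cells in adults and 14 in perinates. Perinates were lower than adults for 26 in GFP- cells and for 3 in GFP+ cells. Plcb2, the phospholipase of taste transduction, read 1538, 2203 and 2351 in adult GFP- cells, 117, 92.6 and 135 in adult GFP+ cells, 702 and 467 in perinatal GFP- cells and 162, 155 and 107 in perinatal GFP+ cells. GFP- cells were thus higher at both ages with no overlap, by less in perinates (2.09 ± 0.33, adjusted p = 0.00128). Bmx, a Tec family kinase, differed by 2.89 ± 0.30 (adjusted p = 9.56e-05), from 436 to 582 in adult GFP- cells to 84.0 and 42.9 in perinatal GFP- cells. It was dim in perinatal GFP- cells and in GFP+ cells of both ages, and its difference was 2.28 with dim values raised. Rgs13, a G protein regulator, differed by 2.50 ± 0.76 (adjusted p = 0.0403). Its perinatal GFP- arrays read 375 and 114, and the call was lost without any of 8 arrays, with an adjusted p of 0.181 without perinatal GFP- replicate 2 and 0.0504 with the adult numbers as a fixed block. Pou2f3, the transcription factor that specifies tuft cells, differed by 1.21 ± 0.25 (adjusted p = 0.00586), from a mean of 1615 in adult to 530.5 in perinatal GFP- cells. Pou2f3 was added after its value was seen.

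Corneocytes, the dead outer cells of skin, have a list of 34 tested genes, of which 16 were called positive and none negative (1 at an unadjusted p under 0.05, median 1.05). Without replicate 1 of the perinatal GFP- cells 21 were called and without replicate 2 there were 11. Krt10, a keratin of differentiated epidermis, read 2509, 2126 and 2431 in adult GFP- cells and 379, 341 and 498 in adult GFP+ cells. In perinates it read 315 and 234 in GFP- cells and 213, 253 and 241 in GFP+ cells, so the sorts overlapped there and not in adults (2.34 ± 0.24, adjusted p = 7.2e-05). Krt1, its partner keratin, differed by 2.47 ± 0.32, Lypd3 by 2.63 ± 0.36 and Spink5, a protease inhibitor of skin, by 2.47 ± 0.42. In each of the 3 the adult GFP- arrays were the highest of the 11.

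The microfold list, named for the antigen-sampling cells of gut lymphoid tissue, had 9 positive calls among 13 tested genes (median 1.30). Here the sorts were not called apart in adults for most members, with 2 higher and 4 lower, whereas in perinates 9 were higher in GFP+ cells. Ccl20, the ligand of Ccr6, read 1144, 1416 and 1718 in adult GFP- cells, 1248, 1386 and 1442 in adult GFP+ cells, 168 and 143 in perinatal GFP- cells and 509.8, 825 and 477 in perinatal GFP+ cells. The adult sorts overlapped and the perinatal GFP- arrays were the lowest (1.97 ± 0.30, adjusted p = 0.00101). Ccl9 differed by 2.09 ± 0.23, with a called change of sign from -0.44 in adults to 1.65 in perinates. Tnfrsf11b, the decoy receptor osteoprotegerin, differed by 1.77 ± 0.28 and Spib, a transcription factor of microfold cells, by 1.20 ± 0.24 (adjusted p = 0.0055). Gp2, the microfold cell receptor for bacterial fimbriae, differed by 2.15 ± 0.60 (adjusted p = 0.0295), a call that was lost without any of 6 arrays (adjusted p 0.0538 to 0.0658) and with all 17 arrays in the fit (0.0525).

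The secretory and goblet list had 12 positive and no negative calls among 23 (0 negative at an unadjusted p under 0.05, median 1.08). Foxa1, an endodermal transcription factor, read 1111, 1024 and 1075 in adult GFP- cells, 705, 489 and 572 in adult GFP+ cells, 339 and 192 in perinatal GFP- cells and 613, 536 and 688 in perinatal GFP+ cells. GFP- cells were the higher sort in adults and the lower in perinates, with no overlap at either age (2.13 ± 0.29, adjusted p = 0.000472). Cftr, the chloride channel, also changed sign, from -1.08 to 0.72 (1.79 ± 0.31). The enterohepatic list had 12 positive calls and 1 negative among 26 (median 0.78), the negative being Fgg. Reg3b, an intestinal antimicrobial lectin, changed from -1.01 in adults to 1.31 in perinates (2.32 ± 0.32, and 1.07 with dim values raised, both perinatal sorts being dim), and Cdhr5, a brush border cadherin, from -0.59 to 1.35 (1.94 ± 0.24). Fabp9, a fatty acid binding protein, differed by 2.26 ± 0.67 (adjusted p = 0.0376), and without any of 8 arrays the call was lost (adjusted p 0.0594 to 0.16), as it was with dim values raised (0.089) and with the adult numbers as a fixed block (0.0576).

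Neuroendocrine genes gave 5 positive calls among 17 (median 0.64), with 8 under quantile normalization and 9 without adult GFP- replicate 8. Syt1, a calcium sensor of vesicle release, read 4026, 4959 and 3819 in adult GFP- cells, 5274, 6214 and 6135 in adult GFP+ cells, 754 and 622 in perinatal GFP- cells and 4545, 4320 and 5189 in perinatal GFP+ cells. The perinatal GFP- arrays stood alone at the low end (2.30 ± 0.20, adjusted p = 3.31e-05). Chga, a granule protein, differed by 1.91 ± 0.27. Resp18, an endocrine granule protein, differed by 1.25 ± 0.25 and was lower in perinates in both sorts, with age differences of -3.56 in GFP- and -2.32 in GFP+ cells. Both perinatal sorts were dim for Resp18, and its call was lost with dim values raised (0.52, adjusted p = 0.116). Ciliated cell genes gave 4 positive calls among 15 (median 0.52): Dynlrb2 (1.63 ± 0.39), Dnali1 (1.34 ± 0.25), Ccdc39 (1.08 ± 0.23) and Mcidas, whose call at 0.87 ± 0.26 was lost without any of 8 arrays (adjusted p 0.071 to 0.1). Dnali1 and Ccdc39 were dim outside adult GFP- cells and Dynlrb2 in GFP+ cells of both ages. With dim values raised their differences were 1.13, 0.11 (no longer called, adjusted p = 0.548) and 1.04. The 4 calls are 26.7% of the 15 ciliated cell genes, against 9.3% of all genes called positive. Dnali1 and Ccdc39 passed the filter through adult GFP- cells alone, so their positive sign says nothing about the list. Of the muscle genes none of 18 was positive (1 at an unadjusted p under 0.05) and 2 were negative, Actc1 (-1.49 ± 0.22, adjusted p = 0.000711) and Ckm (-0.82 ± 0.16, adjusted p = 0.00338), both sarcomere or muscle energy genes whose GFP+ excess in adults (1.32 and 0.69) was -0.17 and -0.13 in perinates.

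**Figure D4:**
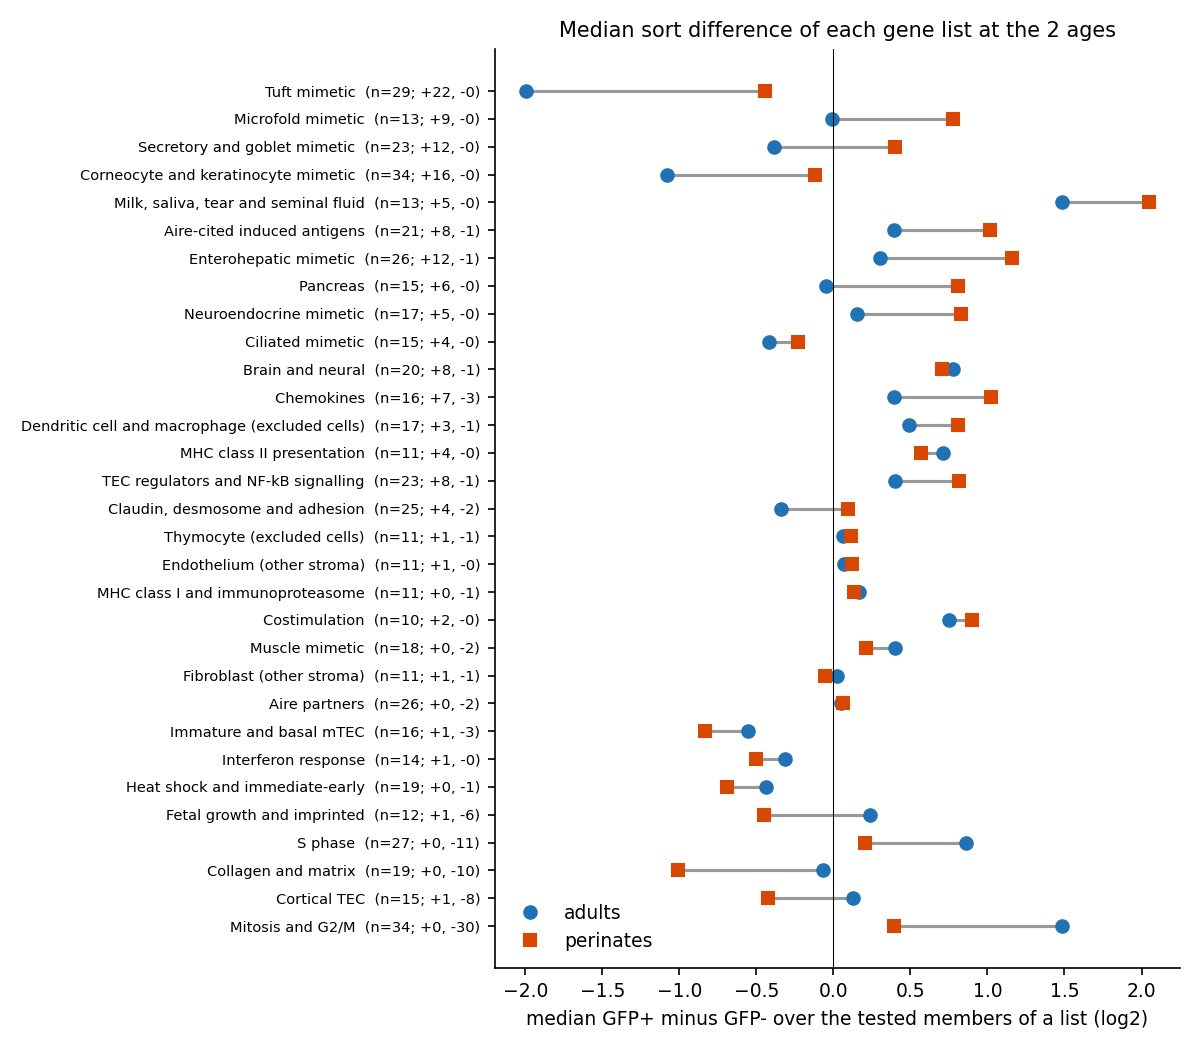
Median log2 difference between GFP+ and GFP- cells over the tested members of each list with 10 or more of them, in adults (circles) and perinates (squares), ordered by the median difference by age. The label gives the number tested and the calls of the difference by age in each direction. Tuft genes move from -2.00 to -0.45 and mitosis genes from 1.48 to 0.39. For the brain, MHC class II and MHC class I lists the perinatal median lies below the adult one although the median of the members' own differences is above 0, and for the Aire partners both are the other way round.

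Antigens of other organs were also mostly positive where called. Of 15 tested pancreas genes 6 were positive and none negative (1 at an unadjusted p under 0.05, median 0.67). Iapp, an islet hormone, read 923, 793 and 962 in adult GFP- cells, 479, 492 and 539.6 in adult GFP+ cells, 471 and 218 in perinatal GFP- cells and 766, 744 and 686 in perinatal GFP+ cells. It changed sign with no overlap of sorts at either age (2.01 ± 0.32, adjusted p = 0.0013). Clps, pancreatic colipase, did so too (1.70 ± 0.38, adjusted p = 0.00919). Spink1, the trypsin inhibitor, differed by 2.25 ± 0.36. It was dim in both perinatal sorts, and its difference was 2.51 with dim values raised. Brain genes gave 8 positive calls and 1 negative among 20 (median 0.49), led by Tac2, a tachykinin (1.62 ± 0.35), Gpr50, an orphan receptor (1.51 ± 0.41), and Pcp4, a Purkinje cell protein (1.49 ± 0.22). The call of Gpr50 was lost without any of 6 arrays (adjusted p 0.0513 to 0.0833).

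In the list of milk, saliva, tear and seminal proteins 5 of 13 were positive (median 0.91), and 3 without perinatal GFP- replicate 2 or with dim values raised. Of 4 caseins, which were higher in GFP+ cells at both ages, Csn1s1 and Csn2 were called, and Csn1s2a (0.92 ± 0.36, adjusted p = 0.11) and Csn3 (-0.23 ± 0.24, adjusted p = 0.571) were not. Csn1s1 (1.52 ± 0.37) was dim in perinatal GFP- cells, and with dim values raised its difference was -0.52 and not called (adjusted p = 0.266). Csn2 read 1447, 1576 and 911 in adult GFP- cells and 5522, 5657 and 6792 in adult GFP+ cells, against 408 and 321 in perinatal GFP- cells and 5515, 4803 and 4044 in perinatal GFP+ cells (1.49 ± 0.30, adjusted p = 0.00482). The 6 tested genes of testis and eye gave no call, with 0 at an unadjusted p under 0.05. Their brightest members were Cryab (0.57 ± 0.32, adjusted p = 0.253) and Cryaa (0.01 ± 0.22, adjusted p = 0.989).

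Antigens cited in the field as induced by Aire gave 8 positive calls and 1 negative among 21 (median 0.89). All of the called genes but Dmbt1 are also counted in the milk, enterohepatic, secretory, brain or pancreas lists, so this is not a separate result. Ttr, the thyroid hormone carrier, changed sign, from -0.84 in adults to 0.68 in perinates (1.52 ± 0.28, adjusted p = 0.0029). It was dim in perinatal GFP- cells, and the difference was 1.01 with dim values raised. Apoa1, an apolipoprotein, read 738, 958 and 947 in adult GFP- cells and 1098, 1372 and 1626 in adult GFP+ cells, against 263 and 243 in perinatal GFP- cells and 1009, 1100 and 1202 in perinatal GFP+ cells (a 2.83-fold higher ratio in perinates, adjusted p = 0.00106). A wider set was taken from the knockout arrays: 457 genes were at least 2-fold lower in knockout than wild-type GFP+ cells at both ages. Of these 142 (31.1%) were positive and 16 (3.5%) negative, with a median of 0.49. The choice of the 457 uses the same wild-type GFP+ arrays as the comparison, so the share supports nothing by itself. Their median age difference was -0.85 in GFP- cells and -0.42 in GFP+ cells.

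Regulators of medullary cells and of NF-kB signalling gave 8 positive calls and 1 negative among 23 (median 0.30). Fezf2 read 2974, 3272 and 2971 in adult GFP- cells, 3632, 4269 and 4312 in adult GFP+ cells, 471 and 464 in perinatal GFP- cells and 2270, 2605 and 3417 in perinatal GFP+ cells. The perinatal GFP- arrays stood below the other 9 (2.14 ± 0.21, adjusted p = 6.77e-05), and GFP+ cells exceeded GFP- cells at both ages. Irf4, an immune transcription factor, differed by 1.80 ± 0.31 (adjusted p = 0.00194). It read 102 and 99.0 in perinatal GFP- cells, where it was dim, against 416 to 1350 elsewhere. With dim values raised its difference was 1.73. Tnfrsf11a, which encodes RANK, differed by 1.05 ± 0.22 (adjusted p = 0.00668). The negative gene was Pax1, a thymus organogenesis factor, at -1.51 ± 0.20, with 2412 and 1969 in perinatal GFP- cells and 396 to 709 elsewhere.

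Antigen presentation genes changed in part. In the MHC class II list 4 of 11 were positive and none negative (2 at an unadjusted p under 0.05, median 0.34). H2-Eb2 read 2438, 2982 and 2254 in adult GFP- cells, 6413, 6693 and 6639 in adult GFP+ cells, 299 and 432 in perinatal GFP- cells and 5530, 5427 and 5603 in perinatal GFP+ cells. The sorts were apart at both ages and more so in perinates (2.57 ± 0.21, adjusted p = 2.37e-05). The cathepsin Ctsh (1.37 ± 0.24) and both chains of the peptide-editing inhibitor H2-O, H2-Ob (1.21 ± 0.24) and H2-Oa (0.90 ± 0.17), were the other 3. Of 11 MHC class I genes none was positive (2 at an unadjusted p under 0.05) and Erap1, a peptide trimming enzyme, was negative (-0.93 ± 0.27, adjusted p = 0.0311). That is 9.09%, against 7.5% of all genes called negative. The call of Erap1 was lost without any of 9 arrays (adjusted p 0.0547 to 0.0677 where each group kept at least 2 arrays).

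Of 10 costimulatory genes the CD28 ligands Cd80 and Cd86 were positive. Cd80 read 2725, 2394 and 1889 in adult GFP- cells, 3820, 3682 and 3357 in adult GFP+ cells, 671 and 384 in perinatal GFP- cells and 3561, 3419 and 3706 in perinatal GFP+ cells. GFP+ cells were close at the 2 ages and perinatal GFP- cells lowest (2.16 ± 0.28, adjusted p = 0.000331). Cd86 differed by 1.48 ± 0.20, but it was dim in perinatal GFP- cells (47.7 and 47.3), and with dim values raised the difference was 0.33 and not called (adjusted p = 0.269). Cd40, which was not called (0.18 ± 0.18, adjusted p = 0.538), had group means of 811 and 3252 in adult and 578 and 2645 in perinatal GFP- and GFP+ cells.

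Chemokines split: 7 of 16 were positive and 3 negative (median 0.47), and without adult GFP- replicate 8 or adult GFP+ replicate 6 or 8 there was 1 negative. Cxcl13, the follicle chemokine, read 418, 652 and 348 in adult GFP- cells, 2384, 2601 and 2557 in adult GFP+ cells, 161 and 102 in perinatal GFP- cells and 2904, 2733 and 2722 in perinatal GFP+ cells (1.98 ± 0.31, adjusted p = 0.00128). Ccl22, a ligand of Ccr4, differed by 2.03 ± 0.34. Cxcl12 was negative. It read 98.4, 98.8 and 108 in adult GFP- cells and 78.3, 83.6 and 84.8 in adult GFP+ cells, near or below the level that counts as dim, and 704 and 790 in perinatal GFP- cells against 99.9, 86.0 and 84.6 in perinatal GFP+ cells (-2.75 ± 0.16, adjusted p = 3.59e-06).

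Genes of mitosis shared the negative direction. Of 34 tested, 30 were negative and none positive (0 at an unadjusted p under 0.05, median -1.05), against 7.5% of all genes called negative. In adults all 34 were higher in GFP+ than in GFP- cells (median 1.48), and in perinates 12 were (median 0.39). Perinates exceeded adults for 33 in GFP- cells and for 6 in GFP+ cells. Ccna2, cyclin A2, read 257, 279 and 421 in adult GFP- cells, 1372, 1325 and 1420 in adult GFP+ cells, 1276 and 1178 in perinatal GFP- cells and 1339, 2036 and 2021 in perinatal GFP+ cells. Adult GFP- cells stood below all other arrays (-1.61 ± 0.29, adjusted p = 0.00257). Mki67, which marks dividing cells, read 319, 323 and 423 in adult GFP- cells and 998 to 1681 on the other 8 arrays (-1.39 ± 0.23, adjusted p = 0.00164). The spindle motor Kif11 (-1.45 ± 0.25) and the hyaluronan receptor Hmmr (-1.33 ± 0.31) differed alike. Hmmr was dim in adult GFP- cells, and its call was lost with dim values raised (-0.52, adjusted p = 0.129).

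The count of 30 was sensitive to single arrays: it was 11 without perinatal GFP- replicate 1, 19 without perinatal GFP- replicate 2, 17 without adult GFP- replicate 7, 17 without adult GFP+ replicate 8 and 19 without perinatal GFP+ replicate 5, and none was called positive in any of these. Of 27 S phase genes 11 were negative and none positive (0 at an unadjusted p under 0.05, median -0.79). They included Dtl, a replication licensing ubiquitin ligase subunit (-1.21 ± 0.21, adjusted p = 0.00222), and Exo1, an exonuclease (-1.04 ± 0.18, adjusted p = 0.00192). Exo1 was dim in adult GFP- cells, and its call was lost with dim values raised (-0.15, adjusted p = 0.557). That count was 7 without adult GFP- replicate 6, 4 without adult GFP- replicate 7, 3 and 6 without perinatal GFP- replicates 1 and 2, 4 without adult GFP+ replicate 6 or 8, and 3 and 5 without perinatal GFP+ replicates 5 and 7.

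Promoters of the mitosis genes were read because their transcripts moved together. Many genes of this class carry, near the start site, a cell cycle homology region, TTTGAA in its usual form, and CCAAT boxes, and the DREAM complex and NF-Y are known to act there. Within 250 bases before the start site (RefSeq, GRCm38.p6, either strand, overlap between the motifs not checked), 30 of the 34 genes had an entry. TTTGAA was found in 12 of the 30 (40%) and CCAAT in 24 (80%), against 16.3% and 34.5% of all 27025 promoters and 10.9% and 35.6% of the 10749 of genes tested. Both were found in 11 (36.7%), against 5.73% and 4.24%. Of 22 S phase promoters 3 (13.6%) held TTTGAA and 15 (68.2%) CCAAT, so a high share of CCAAT was not limited to the mitosis genes. Of 25 tuft promoters 2 (8%) held TTTGAA and 6 (24%) CCAAT. A match describes letters and not binding. The 120 bases before the start of Kif11 and of Cdk1 are shown 5′ to 3′ on the strand of each gene, as members with both motifs, which are in capitals on whichever strand they lie (TTCAAA and ATTGG are the reverse complements). Cdk1, the mitotic kinase, differed by -0.95 ± 0.27 (adjusted p = 0.0299) and was chosen after its promoter was read. They lie at chr19:37376262-37376381 (+) and chr10:69352913-69353032 (-).
Kif11: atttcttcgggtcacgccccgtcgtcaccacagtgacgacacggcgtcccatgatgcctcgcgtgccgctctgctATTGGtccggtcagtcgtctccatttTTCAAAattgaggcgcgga
Cdk1: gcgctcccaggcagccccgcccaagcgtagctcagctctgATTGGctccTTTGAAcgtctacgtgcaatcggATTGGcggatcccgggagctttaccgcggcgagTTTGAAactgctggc
In both, the capitals fall within the 120 bases nearest the start. Kif11 has 1 match to each motif and Cdk1 has 2 to each.

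**Figure D5:**
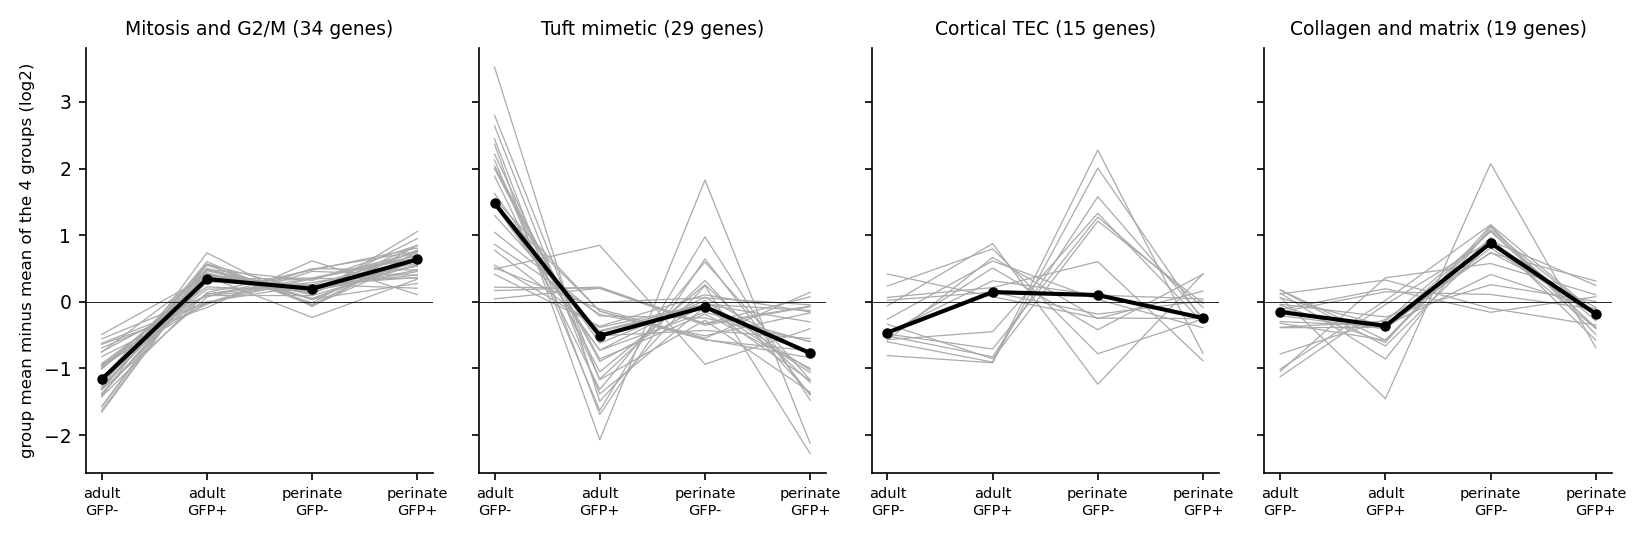
Group means of log2 intensity for each tested member (grey lines) of the mitosis, tuft, cortical and matrix lists, less the mean of the gene's 4 groups, with the median in black. Mitosis genes are low in adult GFP- cells, tuft genes are high there, and matrix genes are high in perinatal GFP- cells. The cortical genes divide, with 8 called negative and 1 positive.

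Genes typical of cortical thymic epithelium, the neighbouring compartment that the Ly51- gate should leave out, were negative for 8 of 15 and positive for 1 (median -0.83). Prss16, a protease of cortical cells, read 486, 409 and 471 in adult GFP- cells, 594, 301 and 419 in adult GFP+ cells, 3099 and 3286 in perinatal GFP- cells and 1149, 711 and 337 in perinatal GFP+ cells. Perinatal GFP- cells were above all others (-2.19 ± 0.52, adjusted p = 0.0133). Psmb11, the thymoproteasome subunit, read 88.9 to 109.5 in both adult sorts, 383 and 313 in perinatal GFP- cells and 108 to 117 in perinatal GFP+ cells (-1.76 ± 0.17, adjusted p = 6.03e-05). Ly75, an endocytic receptor, differed by -1.63 ± 0.21, through 596 and 639 in perinatal GFP- cells and 195 to 275 in perinatal GFP+ cells. Cxcl12 and Pax1, given above, are members too. Of the other members called negative, Bmp4 was also highest in perinatal GFP- cells, but Enpep and Dll4 were highest in adult GFP+ cells. Enpep, which encodes Ly51, had mean log2 intensities of 6.81 and 8.05 in adult GFP- and GFP+ cells. In perinates they were 7.13 and 7.54. For Dll4 they were 9.01 in adult GFP+ and 8.43 in perinatal GFP- cells. The positive member was Ccl25, a thymocyte attractant that medullary cells also make (0.72 ± 0.22, adjusted p = 0.0442). Summed intensity of the 15 measured cortical genes was 15900 to 16270 in adult GFP-, 20540 to 21660 in adult GFP+, 23380 to 24210 in perinatal GFP- and 16590 to 19070 in perinatal GFP+ cells. The brightest members weigh most in these sums, which are no measure of cortical content. Ccl25 and Tbata had mean log2 intensities of 12.58 and 12.405 in adult GFP+ cells, and Ctsl 13.06 in perinatal GFP- cells. What part cortical cells had in the other differences was not tested.

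Matrix genes were negative for 10 of 19 and positive for none (0 at an unadjusted p under 0.05, median -0.81). Fn1, fibronectin, read 758, 743 and 587 in adult GFP- cells, 1414, 1515 and 1317 in adult GFP+ cells, 3018 and 3192 in perinatal GFP- cells and 1045, 1367 and 1320 in perinatal GFP+ cells. GFP+ was the higher sort in adults and the lower in perinates (-2.36 ± 0.20, adjusted p = 3.2e-05). Nid1, a basement membrane linker (-1.88 ± 0.18), and Col12a1 (-1.75 ± 0.23) also changed sign. Sparc, a collagen-binding protein, was -1.53 ± 0.22, with 3506 and 3309 in perinatal GFP- cells and 1054 to 1503 elsewhere.

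Imprinted and fetal growth genes were negative for 6 of 12 and positive for 1, Plagl1 (1.05 ± 0.26, median of the list -0.68). Peg3 read 161, 152 and 169 in adult GFP- cells, 213, 181 and 189.8 in adult GFP+ cells, 1285 and 1369 in perinatal GFP- cells and 551, 515 and 658 in perinatal GFP+ cells. Both sorts were higher in perinates with no overlap, GFP- cells by more (-1.49 ± 0.18, adjusted p = 0.000233). Grb10, an adaptor that restrains growth factor signalling, showed the same (-1.34 ± 0.21), as did Mest (-1.63 ± 0.27), and both changed the sign of the sort difference. Among 16 genes of immature and basal medullary cells 3 were negative and 1 positive, Cldn3 (1.08 ± 0.24). Itga3, an integrin chain, was -0.90 ± 0.15 with a change of sign, and Pdpn, podoplanin, -1.03 ± 0.31 (adjusted p = 0.0371, lost without any of 7 arrays at 0.0527 to 0.14).

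The remaining lists had few calls, to be read against 9.3% of all genes called positive and 7.5% called negative. The share called in either direction was 24% for adhesion, 7.14% for interferon response and 5.26% for heat shock and immediate-early genes. Of 25 adhesion genes 4 were positive, including Tjp3 (1.39 ± 0.18) and Cldn7 (1.24 ± 0.23), both of tight junctions. The 2 negative ones include Dsc3, given above. Of 26 genes whose proteins assist Aire none was positive (3 at an unadjusted p under 0.05) and 2 were negative. That is 7.69%, against 7.5% of all genes called negative. Xrcc5, the Ku80 DNA repair subunit, was -1.76 ± 0.33 (adjusted p = 0.00311), with 605 and 764 in perinatal GFP- cells and 139.9 to 280.5 elsewhere, and Top2a, which is also a mitosis gene, -1.12 ± 0.32 (adjusted p = 0.0323, lost without any of 7 arrays at 0.0649 to 0.0932). Among 14 interferon response genes only Oasl1 was called (0.72 ± 0.22, adjusted p = 0.0399), and its call was lost without any of 8 arrays (adjusted p 0.0513 to 0.109). Among 19 heat shock and immediate-early genes only Ier3 was (-1.20 ± 0.33, adjusted p = 0.0255), lost without any of 5 arrays (adjusted p 0.0527 to 0.116).

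Markers of cells that the gates should leave out were read on the same arrays. Their counts stand against 9.3% of all genes called positive and 7.5% called negative. The share called was 9.09% for endothelial genes, all positive. In both directions together it was 18.2% for thymocyte and for fibroblast genes. Of 17 tested dendritic cell and macrophage genes 3 were positive, Lyz2, Itgam (0.69 ± 0.15, adjusted p = 0.00895) and Fcer1g, and Sirpa was negative. The calls of Fcer1g (0.70 ± 0.20, adjusted p = 0.0312) and Sirpa (-0.70 ± 0.21, adjusted p = 0.0422) were lost with single arrays left out (adjusted p up to 0.13 and 0.178). Itgam was dim in both perinatal sorts and was not called with dim values raised (0.25, adjusted p = 0.178). Lyz2 made up 53.1% to 61.9% of their summed intensity on adult arrays, 6.6% to 7.78% on perinatal GFP- arrays and 41.4% to 50.3% on perinatal GFP+ arrays. Without it the other 19 measured genes summed to 2676 to 3636 in adult GFP-, 4056 to 4455 in adult GFP+, 2327 to 2817 in perinatal GFP- and 3625 to 4120 in perinatal GFP+ cells. Ptprc, which encodes CD45, had group means of 178, 151, 82.3 and 137 in adult GFP-, adult GFP+, perinatal GFP- and perinatal GFP+ cells and was not called (0.96, adjusted p = 0.0761). Itgax was dim throughout, at means of 59.9 to 78.2. Of 17 measured thymocyte genes, 7 were above the dim level on every array of adult GFP- cells and 7 on every array of adult GFP+ cells. In perinates these were 4 in GFP- and 8 in GFP+ cells. Cd3d, Rag2 and Dntt, picked after their values were seen, were dim in every group, at means of 15.5 to 57.9. Of the 11 tested, 1 was positive and 1 negative, Themis and Bcl11b, and both calls were lost without single arrays. Themis was dim outside adult GFP- cells and was not called with dim values raised (0.17, adjusted p = 0.419). Of 3 tested B cell genes Cd79b was positive (1.31 ± 0.24, adjusted p = 0.00299), while Blk and Ighm were not called. Cd79a and Ms4a1, which were not tested and were picked after their values were seen, had means of 33.0 to 87.9. Of 9 measured B cell genes, 1 was above the dim level on every array of adult GFP- cells and 2 on every array of adult GFP+ cells. In perinates these were 1 in GFP- and 2 in GFP+ cells. Of 11 endothelial genes Tek was positive (1.75 ± 0.35, adjusted p = 0.00513). It read 230 to 512 in adult GFP- cells and 85.0 to 127 elsewhere, and was dim in both perinatal sorts. With dim values raised its difference was 1.65. Of 11 fibroblast genes Fbln1 was negative (-1.19 ± 0.29, adjusted p = 0.0152, and 0.0598 without perinatal GFP- replicate 1) and Pdgfrb positive (0.73 ± 0.21, adjusted p = 0.0345, up to 0.106 with an array left out). Of the 3 tested erythroid genes none was called (0 at an unadjusted p under 0.05), with Slc4a1 at 0.34 ± 0.21 and Alas2 at 0.09 ± 0.20. What part such cells had in the differences was not tested.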

How the data were processed

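The authors deposited 1 linear intensity per probe set and array, made with Affymetrix Power Tools and RMA per the submitters' processing notes. Their versions, and which arrays were normalized jointly, are not stated in those notes. Of 24922 probe sets, 21425 had a single symbol in the platform annotation, and 21347 of these were found in RefSeq (GRCm38.p6). They name 19752 genes, each represented by its probe set with the highest mean intensity over 17 arrays. The log2 of the intensity was taken with no pseudocount. Genes above the 40th percentile of the array on at least 2 of the 11 arrays were tested.

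The 4 group means of the 11 arrays were fitted in limma 3.58.1 (R 4.3.3, lmFit, contrasts.fit and eBayes). The residual degrees of freedom were 7 and the prior added 5.38. All p-values are two-sided and adjusted over 13529 genes by the Benjamini-Hochberg method. The steps were tested on simulated data. Precision is limited by how few arrays there are.

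The comparison and the 34 gene lists (649 of 712 genes measured) were chosen with earlier results of these data known. The lists hold 750 entries for the 712 genes, so some genes, such as Spib, Gp2 and Muc13, count in more than 1 list. Named were the 14 largest called differences in each direction, Aire, G6pc2 and called list members (up to 4 a list with values). For a list without a call, its 2 brightest members were named. Ccl25, Cd3d, Cd40, Cd79a, Cdk1, Csn1s2a, Csn3, Dntt, Itgax, Ms4a1, Plagl1, Pou2f3, Ptprc, Rag2, Spib and Tnfrsf11a were chosen after their values were seen. So were Bmp4, Dll4 and Enpep. Epcam and H2-Aa checked the labels. Adult GFP+ and GFP- samples share replicate numbers 6, 7 and 8. Deviations from the group means of samples with the same number correlated at 0.503, 0.445 and 0.188. For samples with different numbers the values were -0.441 to 0.096. The numbers were therefore taken to pair the adult samples, with the least support for number 8. The main fit has no block for this pairing, and only alternatives use it. Perinatal sorts share no number. Alternatives covered normalization, filters, pseudocount, weights, moderation, probe set choice, pairing and each array left out. A fixed block for the adult numbers, dim values raised to the 40th percentile and list counts without each array were added after seeing the data. Probe sets with several symbols or none were fitted apart.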

Additional observations from a re-analysis of the deposited data

Results flagged for a closer look

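Every call of the report is by construction a difference between the ages in the contrast of the sorts, and all 1258 positive and 1015 negative genes meet that description. Among them, 106 and 84 genes had both sort differences called in opposite directions. The named genes with such a change of sign and a more positive value in perinates were Il12rb2 (3.42), Reg3b (2.32), Foxa1 (2.13), Ccl9 (2.09), Iapp (2.01), Cdhr5 (1.94), Cftr (1.79), Clps (1.71), Ttr (1.52) and Resp18 (1.25). Those with a more negative value were Ptprz1 (-3.37), Nqo1 (-3.18), Pkhd1l1 (-2.41), Fmo1 (-2.40), Fn1 (-2.36), Nid1 (-1.88), Col12a1 (-1.75), Mest (-1.63), Grb10 (-1.34) and Itga3 (-0.90). All values are log2 differences of the sort difference, perinate minus adult. Il12rb2, Reg3b, Ttr, Resp18, Pkhd1l1 and Mest were dim in at least 1 group, so their value there is taken against background. Groups of 2 or 3 arrays are too small to look for a sample that stands apart.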

How the results depend on the processing

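Across 12 other settings the number of genes called was 1899 to 2789, and the split between directions was 50.7% to 56.8% positive. With each array left out there were 1635 to 2182, of which 820 to 1277 were positive and 657 to 1042 negative. Without perinatal GFP- replicate 1 the negative genes were 657, and without replicate 2 the positive genes were 820. The remaining array was assumed to vary like the other groups, and the cause was not tested. With the replicate block as a random effect, which uses the pairing of the adult numbers (consensus correlation 0.428), 2789 genes were called, 1503 positive and 1286 negative, and all 2273 genes called without the block were among them. With the adult numbers as a fixed block and the perinatal samples without one, a fit added after seeing the data (5 residual degrees of freedom), 2244 genes were called, 1247 positive and 997 negative, and 2112 of the 2273 were among them. With dim values raised, also added, there were 2208, 1120 positive and 1088 negative, and 1937 of the 2273 were among them. Of 115 named genes called, 97 stayed called under all 12 settings and 93 with any array left out. In the count of 97, a gene that the filter of a setting removed was not fitted there and did not count as lost. The direction reversed for Csn1s1 alone, at -0.52 with dim values raised, where perinatal GFP- cells had been dim. The median over all genes was -0.05 to 0.01 under these settings.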

Other observations

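Probe sets with several gene symbols or none, 3497 in all, entered no comparison above. Of the 2044 that passed the same filter, 104 (5.09%) had a positive and 130 (6.36%) a negative difference of the sort difference by age at an adjusted p under 0.05 in limma. They are not named here.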
